A study of Homo sapiens with 4 samples.

Results

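Pancreatic cancer cells of the SW1990 and PANC-1 lines were examined for 10 genes whose surface proteins speak to immune cells. They were picked by gene name from the 58174 rows of the deposited table that carry a gene identifier. All 10 were found: CD274, PDCD1LG2, VTCN1 and CD276 of the B7 family, CD47, NT5E and PVR, and the stress ligands ULBP2, MICA and MICB. SW1990 and PANC-1 are established human lines, and as cultures they lack the immune cells of a tumor. Unirradiated cells (0 Gy) and cells that had received 10 Gy of X-rays were sequenced, giving 4 libraries, 1 for each combination of line and treatment, to ask what radiation changes in dying tumor cells. SW1990 cells were grown in RPMI 1640 and PANC-1 cells in DMEM, both with serum, so line and medium cannot be told apart. The time between radiation and RNA collection is not given in the sources used here.

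Tumor cells display opposed signals to lymphocytes and macrophages. Checkpoint ligands such as PD-L1 (encoded by CD274) engage inhibitory receptors on T cells, CD47 binds SIRPα on macrophages and blocks engulfment, and CD73 (encoded by NT5E) makes adenosine, which dampens T cells. Stress ligands such as MICA, MICB and the ULBP proteins do the reverse, since they bind the activating receptor NKG2D on natural killer cells, and PVR (CD155) can do either, through the activating receptor CD226 or the inhibitory receptor TIGIT.

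The sequence before the start of a gene is where signals such as interferon act on its transcription, and RefSeq promoters (GRCh38.p14) were found for 9 of the 10 genes. The promoter set used here held no entry for PDCD1LG2. Printed here are the 250 bases before the start of PVR and ULBP2, which had the largest changes with radiation among the 10, of the ULBP2 relatives RAET1G and RAET1L, which rose beside it in SW1990 cells, and of CD274, which was seen in SW1990 cells and not in PANC-1 cells. Each is written 5′ to 3′ on the strand of its gene, and capitals mark the motifs that were searched on both strands. RAET1E, a relative that also rose in SW1990 cells, has several promoters in the set and is not printed.
PVR, chr19:44643660-44643909, plus strand: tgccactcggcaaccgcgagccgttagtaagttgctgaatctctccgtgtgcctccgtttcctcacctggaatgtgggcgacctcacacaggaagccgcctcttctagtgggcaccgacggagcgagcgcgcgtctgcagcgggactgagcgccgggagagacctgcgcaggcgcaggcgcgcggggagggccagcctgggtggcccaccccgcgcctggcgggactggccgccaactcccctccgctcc
ULBP2, chr6:149941764-149942013, plus strand: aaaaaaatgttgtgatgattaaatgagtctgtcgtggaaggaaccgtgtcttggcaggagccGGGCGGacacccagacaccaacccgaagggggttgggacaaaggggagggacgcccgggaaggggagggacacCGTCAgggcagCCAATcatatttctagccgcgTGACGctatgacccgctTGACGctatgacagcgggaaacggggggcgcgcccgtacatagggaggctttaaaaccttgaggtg
RAET1G, chr6:149923122-149923371, minus strand: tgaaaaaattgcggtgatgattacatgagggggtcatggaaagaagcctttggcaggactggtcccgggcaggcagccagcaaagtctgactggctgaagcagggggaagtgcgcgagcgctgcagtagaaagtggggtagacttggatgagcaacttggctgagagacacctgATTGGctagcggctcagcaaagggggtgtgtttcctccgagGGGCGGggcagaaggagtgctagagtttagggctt
RAET1L, chr6:150025533-150025782, minus strand: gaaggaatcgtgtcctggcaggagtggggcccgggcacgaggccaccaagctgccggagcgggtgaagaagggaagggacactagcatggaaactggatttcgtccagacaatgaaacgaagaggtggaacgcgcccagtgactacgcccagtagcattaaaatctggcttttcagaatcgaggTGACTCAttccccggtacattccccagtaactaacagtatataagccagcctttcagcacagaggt
CD274, chr9:5450292-5450541, plus strand: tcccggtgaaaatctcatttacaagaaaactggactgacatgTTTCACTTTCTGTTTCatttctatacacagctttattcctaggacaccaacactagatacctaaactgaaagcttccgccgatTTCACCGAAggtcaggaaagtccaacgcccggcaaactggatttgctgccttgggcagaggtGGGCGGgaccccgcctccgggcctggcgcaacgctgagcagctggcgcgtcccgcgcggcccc
The ULBP2 window held 3 copies of the CRE core motif (TGACG, in 21.2% of 35116 promoters), 1 GC box (GGGCGG, 42.6%) and 1 CCAAT box (CCAAT, 32.0%). The window of ULBP1, a relative that did not rise, also held 3 copies of the CRE core motif. The RAET1L window held 1 AP-1 motif (TGAGTCA, 4.20%), and the RAET1G window held 1 GC box and 1 CCAAT box. Of the RAET1E windows, 1 held an AP-1 motif and a GAS motif (TTCNNNGAA), and the others held CCAAT boxes alone. In pairwise alignments, ULBP2 and RAET1G were identical at 146 of 232 aligned bases (62.9%), and ULBP2 and RAET1L at 126 of 235 (53.6%). The other relatives were about as alike to ULBP2 as RAET1L was, with ULBP3 at 56.7%, ULBP1 at 54.8% and RAET1E at 52.8%. For RAET1E only the window from 149898114 to 149898363 was aligned. The CD274 window held 2 overlapping ISRE cores (3.02% of promoters), 1 GAS motif (TTCNNNGAA, 6.57%), both known interferon response motifs, and 1 GC box. In the PVR window, none of the letters searched were found, which also included E2F (TTTGGCGC, 0.55%), the HSE core of heat shock factors (GAANNTTC, 5.78%) and the TATA box (TATAAA, 10.7%). MICA and MICB, not printed, were identical at 210 of 246 aligned bases (85.4%) and each held 1 HSE core. A match is a run of letters and not a binding site.

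The level of each gene was read first, as FPKM (fragments per kilobase of transcript, scaled to the number of mapped fragments, so that genes can be compared per length) and as the count of reads on the gene. Without and with radiation, the counts on genes summed to 17851815 and 18305682 for SW1990, and to 23323266 and 20026595 for PANC-1. A floor of 3 counts corresponded to between 0.129 and 0.168 CPM, which is the count scaled to the sum over genes. In all 4 libraries, 6 of the 10 genes reached 1 FPKM, namely CD276, CD47, NT5E, PVR, MICA and MICB, and ULBP2 was below it only in unirradiated PANC-1 cells. CD274 was below 1 FPKM in SW1990 cells and at 0 in PANC-1 cells, and PDCD1LG2 and VTCN1 were at 0 in all 4 libraries. The bar plot of FPKM shows that no single gene led in both lines.

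**Figure D1:**
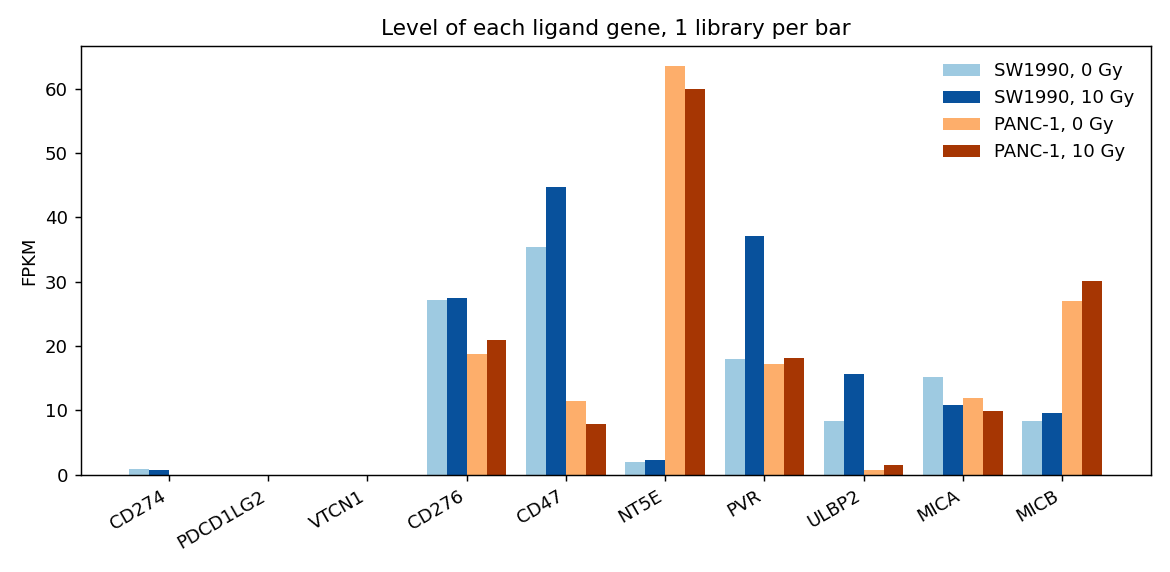
Deposited FPKM (y axis) of the 10 genes (x axis), with 1 bar for each of the 4 libraries and no error bars because there are no replicates. NT5E stands at 63.5 and 60.0 in PANC-1 cells against 2.01 and 2.36 in SW1990 cells, while CD47 and, after radiation, PVR lead in SW1990 cells.

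In SW1990 cells CD47 was the most abundant of the 10 per length, at 35.4 FPKM without and 44.7 with radiation, followed without radiation by CD276 at 27.2 and with radiation by PVR at 37.2. In PANC-1 cells NT5E came first, at 63.5 and 60.0 FPKM, followed by MICB at 27.0 and 30.1. With 1 library per group, the spread around any of these levels is unknown, so that close neighbours in the order, such as CD276 (18.8 FPKM) and PVR (17.2 FPKM) in unirradiated PANC-1 cells, cannot be ranked.

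Among the B7 family, CD276 (B7-H3, chromosome 15, 73683966 to 73714518) carried nearly all of the signal. Its counts were 1274 and 1253 in SW1990 cells and 1035 and 1147 in PANC-1 cells, without and with radiation. Scaled to the sum over genes, CD276 stood at 71.4 and 68.4 CPM in SW1990 and 44.4 and 57.3 CPM in PANC-1 cells, higher in both SW1990 libraries. CD274 (chromosome 9, 5450503 to 5470566) had 29 and 25 counts in SW1990 cells, or 0.926 and 0.665 FPKM, and 0 counts in both PANC-1 libraries. In CPM, SW1990 cells stood at 1.62 (95% Poisson interval 1.09 to 2.33) and 1.37 (0.884 to 2.02), and the intervals of PANC-1 cells ended at 0.158 and 0.184. With the floor of 3 counts in place of 0, CD274 was at least 10.9-fold higher in SW1990 than in PANC-1 cells without radiation and at least 8.62-fold higher with it, a figure that leaves out the counting error of the SW1990 counts. PDCD1LG2 (PD-L2), which starts 40.0 kb beyond the end of CD274, and VTCN1 (B7-H4, chromosome 1, 117143587 to 117210960) had 0 counts in all 4 libraries. Other genes within 500 kb of CD274 had reads in PANC-1 cells, though some were called between the lines. Without radiation 2 of 6 tested were called higher and 1 lower in SW1990 cells, and with radiation 4 of 7 were called higher, PLGRKT among them, beside 35.9% and 35.2% of all genes tested that were called in either direction. JAK2, a kinase of the interferon receptors, had 225, 240, 217 and 175 counts (SW1990 without and with radiation, then PANC-1), and PLGRKT, 12.6 kb from CD274, had 99, 125, 61 and 64.

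The cell type of the lines was checked against markers. KRT8, KRT18 and KRT19, keratins of simple and ductal epithelium, were at 146 FPKM or more in each library. KRT8 was the most abundant epithelial marker, at 1353, 1889, 786 and 851 FPKM (SW1990 without and with radiation, then PANC-1). KRT7, another keratin of the list, was far lower, at 5.79, 6.02, 6.35 and 5.02 FPKM. EPCAM and CDH1, adhesion proteins of epithelium, were high in SW1990 cells (217 and 218 FPKM, and 140 and 239 FPKM) and low in PANC-1 cells (2.28 and 2.81 FPKM, and 0.673 and 1.21 FPKM). MUC1, of the same list, went the other way, with 56 and 85 counts in SW1990 and 313 and 462 in PANC-1 cells. Of the 9 epithelial markers, 3 were called higher and 1 lower in SW1990 than in PANC-1 cells, without and with radiation alike. Over all genes tested, 35.9% and 35.2% were called in either direction. Markers of leukocytes, which carry the receptors for these ligands, were scarce. The 11 leukocyte markers summed to 1.88, 2.25, 19.5 and 15.2 FPKM, and 7 or 8 of them had 0 counts in each library. CD68, a lysosomal protein, was their most abundant in PANC-1 cells, with 967 and 583 counts, and CD14 in SW1990 cells, with 39 and 56, whereas PTPRC, which marks all leukocytes, had 0, 2, 0 and 0 counts. Fibroblast markers summed to 7.39, 12.2, 9.32 and 11.7 FPKM, led by ACTA2 in SW1990 and by COL1A1 in PANC-1 cells, with 5 of 8 at 0 in each library. Of the 3 tested in SW1990 cells, PDGFRB was called lower with radiation (129 and 63 counts, log2 fold change -1.04, but -0.60 by FPKM, and q = 0.586 if a coefficient of variation of 0.2 between replicates is assumed), while ACTA2 (110 and 218 counts, 0.98) and COL1A1 (103 and 165 counts, 0.67) were on the higher side and not called. The endothelial markers summed to at most 6.38 FPKM and were led in PANC-1 cells by KDR, at 999 and 746 counts, against 0 in SW1990 cells. The acinar markers, led by PRSS1 and at 0 in PANC-1 cells, reached at most 0.604 FPKM. The part of these markers in the differences of the 10 genes was not tested.

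To ask what 10 Gy changed, the reads of the irradiated and unirradiated library of each line were compared for every gene that reached 1 FPKM in either of them. The test was edgeR's exactTest with the dispersion set to 0, which is a binomial test of how a gene's reads divide between the libraries, with TMM scaling and Benjamini-Hochberg q-values. Calls needed q under 0.001 together with more than a 2-fold change, the limits of the study's methods. There are no replicates, so the test compares libraries and not conditions, and its intervals (exact Clopper-Pearson, 95%) cover counting error only. Of the 10 genes, 7 could be tested in each line. CD274 stayed under the FPKM limit, and PDCD1LG2 and VTCN1 were at 0.

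PVR (chromosome 19, 44643798 to 44663583) was the only 1 of the 7 called, and only in SW1990 cells. Its counts were 1028 without and 2438 with radiation in SW1990 cells, and 1329 and 1253 in PANC-1 cells. The irradiated SW1990 library thus stood apart from the other 3. In SW1990 cells PVR rose 2.36-fold (interval 2.19 to 2.54), with a log2 fold change of 1.24 and q = 1.94e-134. A change at least this large was seen in 6.62% of all genes tested. In FPKM the change was from 18.0 to 37.2. In RNA from whole cultures, more cells with a transcript and more transcript per cell cannot be told apart. In PANC-1 cells the PVR log2 fold change was 0.05 (interval -0.07 to 0.16, q = 0.549). The response in SW1990 cells exceeded that in PANC-1 cells by 1.19 on the log2 scale (Wald 95% interval from the counts 1.04 to 1.35), a difference between 4 libraries that was not tested over replicates. The call in SW1990 cells is lost if a biological coefficient of variation of 0.2 is assumed between replicates (q = 0.14).
In SW1990 cells 1 of the 7 genes was called, where 4.13% of all 15731 genes tested were called (2.26% higher). In PANC-1 cells 0 of the 7 were called, where 4.7% of 15159 were (2.36% higher). The median log2 fold change of the 7 genes was 0.33 in SW1990 and 0.09 in PANC-1 cells, beside -0.01 and -0.02 over all genes tested. In each line 5 of the 7 were on the higher side.

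**Figure D2:**
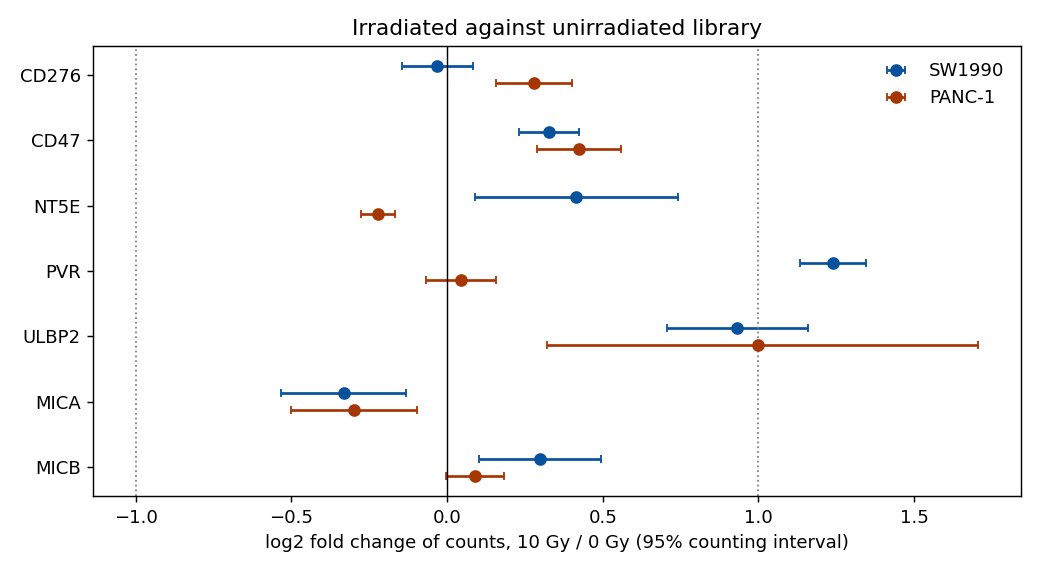
The log2 fold change of counts, irradiated over unirradiated (x axis), of the 7 tested genes (y axis) in SW1990 (blue) and PANC-1 cells (brown), with 95% counting intervals and dotted lines at 2-fold. PVR in SW1990 cells (1.24) is beyond 2-fold with its whole interval, ULBP2 lies near 1 in both lines, and NT5E has opposite signs.

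ULBP2 (chromosome 6, 149942000 to 149949235), a ligand of NKG2D held to the membrane by a lipid anchor, had 246 and 471 counts in SW1990 cells and 29 and 53 in PANC-1 cells. Counts were thus higher with radiation in both lines, at very different levels. The fold change was 1.91 (interval 1.63 to 2.23, q = 9.45e-16) for SW1990 and 2.00 (1.25 to 3.26, q = 0.00948) for PANC-1, and neither met both limits. In PANC-1 cells ULBP2 was at 0.726 and 1.56 FPKM, so that it was tested there only because of the irradiated library. With a fold change limit of 1.5 in place of 2, ULBP2 was called in SW1990 cells along with PVR, where 5.21% of genes tested were called higher, and still missed the q limit in PANC-1 cells, where 5.73% were. The responses in the lines differed by -0.07 on the log2 scale (Wald interval -0.76 to 0.62), so that a difference of up to 0.76 in size was not detectable at this depth.

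MICA and MICB, transmembrane NKG2D ligands encoded in the MHC region (chromosome 6, 31399784 to 31415315 and 31494881 to 31511124), are near neighbours. MICA had 461 and 368 counts in SW1990 and 474 and 352 in PANC-1 cells, lower with radiation in both lines. Its log2 fold change was -0.33 (interval -0.53 to -0.13, q = 0.00361) in SW1990 and -0.30 (-0.50 to -0.10, q = 0.00801) in PANC-1 cells, and was not called. MICB had 391 and 483 counts in SW1990 and 1855 and 1804 in PANC-1 cells, with log2 fold changes of 0.30 (0.10 to 0.49, q = 0.00790) and 0.09 (-0.00 to 0.18, q = 0.106). HCP5, which overlaps MICA on the same strand, had 356 and 15 counts in SW1990 and 6 and 14 in PANC-1 cells. It was called lower in SW1990 cells (log2 fold change -4.58), and how reads were split between it and MICA was not tested. No stretch of 100 bases of the annotated MICA and MICB transcripts was shared with another gene.

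For CD47, NT5E and CD276 the differences stayed under the fold limit too. CD47 (chromosome 3, 108043298 to 108091025) had 1593 and 2007 counts in SW1990 cells and 823 and 1008 in PANC-1 cells. This gave log2 fold changes of 0.33 (0.23 to 0.42, q = 1.34e-10) and 0.42 (0.29 to 0.56, q = 2.72e-09). The FPKM of CD47, however, was 11.4 without and 7.83 with radiation in PANC-1 cells, a log2 fold change of -0.54, so its direction in this line depends on the unit. The transcript length at which its counts and FPKM would meet was 2.52 and 2.45 kb in SW1990 cells, 3.10 kb in unirradiated and 6.43 kb in irradiated PANC-1 cells. Which of the CD47 transcripts were used was not tested. For the other tested genes, the 2 units lay close to each other, apart from a sign change of CD276 near 0.

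**Figure D3:**
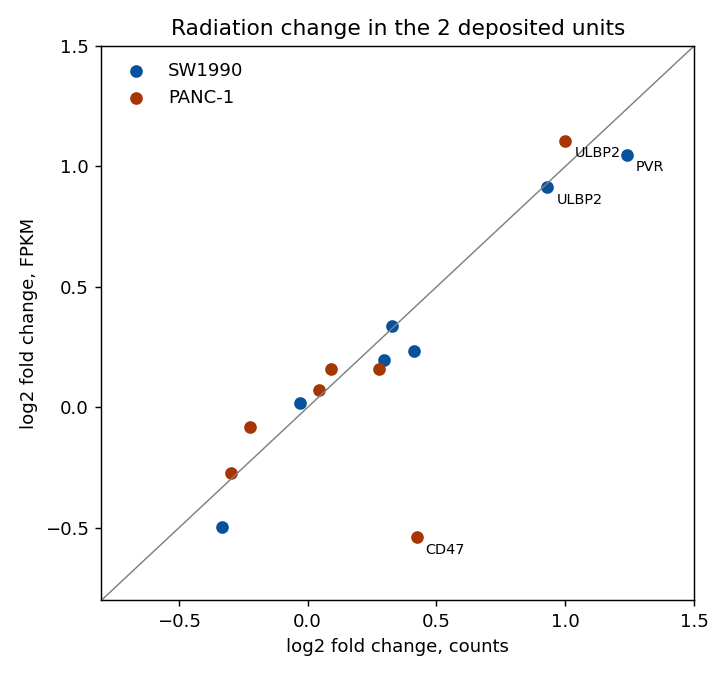
For the 7 tested genes, the log2 fold change with radiation computed from counts (x axis) and from deposited FPKM (y axis), 1 point per gene and line, with the diagonal of equal change. CD47 in PANC-1 cells (0.42 and -0.54) is the 1 point far from the diagonal.

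NT5E (chromosome 6, 85449584 to 85495791) had 139 and 186 counts in SW1990 and 6223 and 4876 in PANC-1 cells. The log2 fold change was 0.41 (0.09 to 0.74, q = 0.0274) in SW1990 and -0.22 (-0.28 to -0.17, q = 6.75e-15) in PANC-1 cells. Both are under the fold limit, and the 2 intervals lie on opposite sides of 0. For CD276, the log2 fold change was -0.03 (-0.14 to 0.08, q = 0.734) in SW1990 and 0.28 (0.16 to 0.40, q = 2.65e-05) in PANC-1 cells. CD274, left out of the test, gave a log2 fold change of -0.22 for SW1990, and its interval of -1.05 to 0.60 means that changes between 0.482-fold and 1.52-fold could not be told from none at 29 and 25 counts. Responses of CD276 and NT5E differed between the lines by -0.31 (Wald interval -0.47 to -0.14) and 0.64 (0.31 to 0.96), whereas the intervals of CD47, MICA and MICB held 0.

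The 4 libraries were also fitted together, with line and radiation as terms (edgeR quasi-likelihood test, 18180 genes). This treats the lines as the replicates of radiation and leaves 1 residual degree of freedom. At an adjusted p below 0.05, radiation gave 0 calls among the 8 of the 10 genes that could be fitted and 0 (0%) of all genes, while DESeq2's Wald test called 39 genes, none of the 10 among them. At an unadjusted p below 0.05 the quasi-likelihood test held 4.58% of all genes (833) and 2 of the 8 that could be fitted. These were ULBP2 (log2 fold change 0.98, unadjusted p = 0.0157) and CD47 (0.39, unadjusted p = 0.0442), each higher in both lines by counts and each with an adjusted p of 0.936. PVR had a log2 fold change of 0.66 and an adjusted p of 0.936.

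More of the genes were called between the lines than with radiation. Between the unirradiated libraries 4 of the 7 tested genes were called, beside 35.9% of 16626 genes, and between the irradiated libraries 5 of 7, beside 35.2% of 16819. NT5E, which makes extracellular adenosine from AMP, was 39.8-fold lower in SW1990 than in PANC-1 cells without radiation (log2 fold change -5.31, interval -5.57 to -5.07) and 25.4-fold lower with it (-4.66, -4.88 to -4.45). MICB was 4.21-fold lower (log2 fold change -2.08, -2.24 to -1.92) and 3.61-fold lower (-1.85, -2.00 to -1.71). ULBP2 went the other way, 9.55-fold higher in SW1990 cells without radiation (interval 6.49 to 14.6), where it passed the FPKM limit in SW1990 cells alone, and 9.19-fold with it (6.91 to 12.5). By counts, CD47 was 2.18-fold higher without (2.00 to 2.37) and 2.06-fold higher with radiation (1.91 to 2.22), and by FPKM 3.11-fold and 5.71-fold. The CD47 calls are lost in both pairs if a coefficient of variation of 0.2 is assumed (q = 0.0236 and 0.0385), as is that of PVR in the irradiated pair (q = 0.0458). PVR was 0.871-fold in unirradiated SW1990 against PANC-1 cells (0.802 to 0.946, not called), but with the libraries scaled by total counts this sign turned. With radiation it was called 2.01-fold higher (1.88 to 2.16). With DESeq2 size factors, PVR and CD47 in the irradiated pair came just under 2-fold and lost their calls (log2 fold changes 0.96 and 0.99). CD276 (1.39-fold and 1.13-fold) and MICA (1.10-fold and 1.08-fold) were not called.
In the fit of all 4 libraries the line term called 5 of the 8 genes that could be fitted, beside 43.6% of all genes fitted. Adjusted p-values of edgeR's quasi-likelihood test were 0.00085 for NT5E, 0.00189 for MICB, 0.00209 for ULBP2, 0.00598 for CD47 and 0.0181 for CD274. CD274, which had reads in SW1990 cells alone and so could be fitted only through the line where it is high, had an adjusted p of 0.0709 by DESeq2's Wald test.

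**Figure D4:**
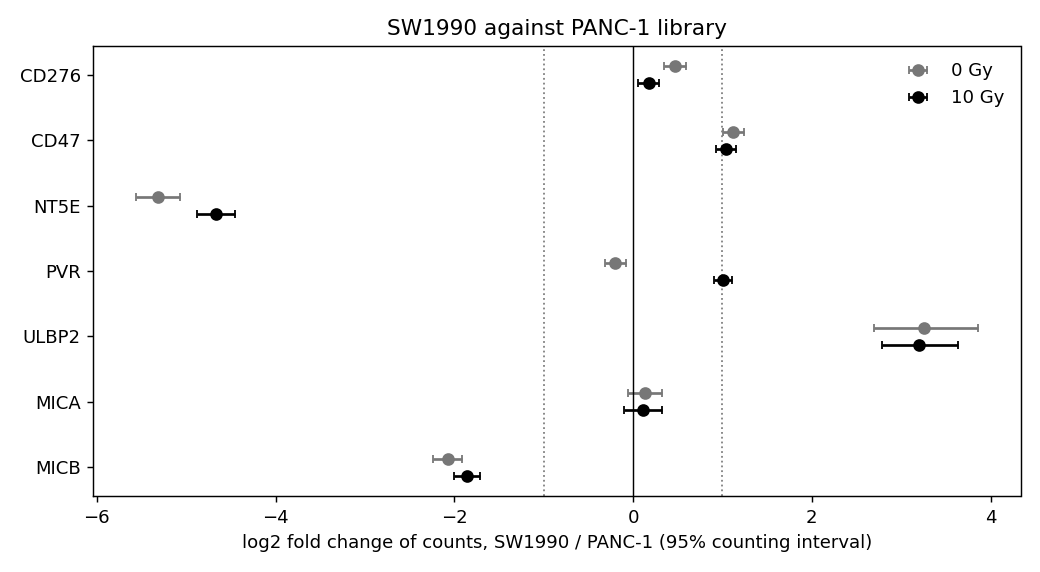
The log2 fold change of counts, SW1990 over PANC-1 (x axis), of the 7 tested genes (y axis) in unirradiated (grey) and irradiated libraries (black), with 95% counting intervals and dotted lines at 2-fold. NT5E (-5.31 and -4.66) and MICB lie to the left and ULBP2 and CD47 to the right in both pairs, while PVR is at -0.20 and 1.01.

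ULBP2 belongs to a cluster of 6 NKG2D ligand genes on chromosome 6 (149883375 to 150069095). In SW1990 cells 3 of its neighbours rose. RAET1E had 35 and 83 counts (log2 fold change 1.24, q = 5.61e-05), RAET1G 8 and 33 (2.04, q = 0.00046) and RAET1L 52 and 146 (1.48, q = 1.59e-10). RAET1G, at 0.324 FPKM without and 1.42 with radiation, entered the test only through the irradiated library. ULBP3 had 142 and 190 counts (0.41, q = 0.0256), and ULBP1 stood at 60 and 59. RAET1E, RAET1G and RAET1L were the only genes called among 15 tested of the 42 within 500 kb of ULBP2. Over all genes tested in SW1990 cells, 4.13% were called (2.26% higher). ULBP1 stood at 489 counts in unirradiated PANC-1 cells and fell to 149 with radiation (log2 fold change -1.58, interval -1.86 to -1.32, q = 1.28e-35). RAET1L had 0 and 3 counts in this line, RAET1G 14 and 14, RAET1E 51 and 63, and ULBP3 66 and 99 (log2 fold change 0.72, q = 0.00471). Whether the responses of these relatives of ULBP2 differ between the lines was not tested. If a coefficient of variation of 0.2 is assumed, the calls of RAET1E (q = 0.395), RAET1G (q = 0.154), RAET1L (q = 0.0976) and, in PANC-1 cells, ULBP1 (q = 0.0247) are lost. The sum of the 6 was 30.4 CPM without and 53.6 CPM with radiation in SW1990 cells, and 27.8 and 19.0 CPM in PANC-1 cells. In PANC-1 cells ULBP1 alone had fewer counts with radiation, so the lower sum there comes from this gene.
Genes of this cluster resemble each other, so reads may be shared. Of all 100-base stretches in the annotated transcripts, ULBP2 shared 11.9% with other genes, nearly all with RAET1L, and RAET1E shared 30.9% with AL355312.5. Added together, ULBP2 and RAET1L had 298 and 617 counts in SW1990 cells, 2.06-fold (interval 1.79 to 2.37), and 29 and 56 in PANC-1 cells, 2.11-fold (1.33 to 3.43).

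**Figure D5:**
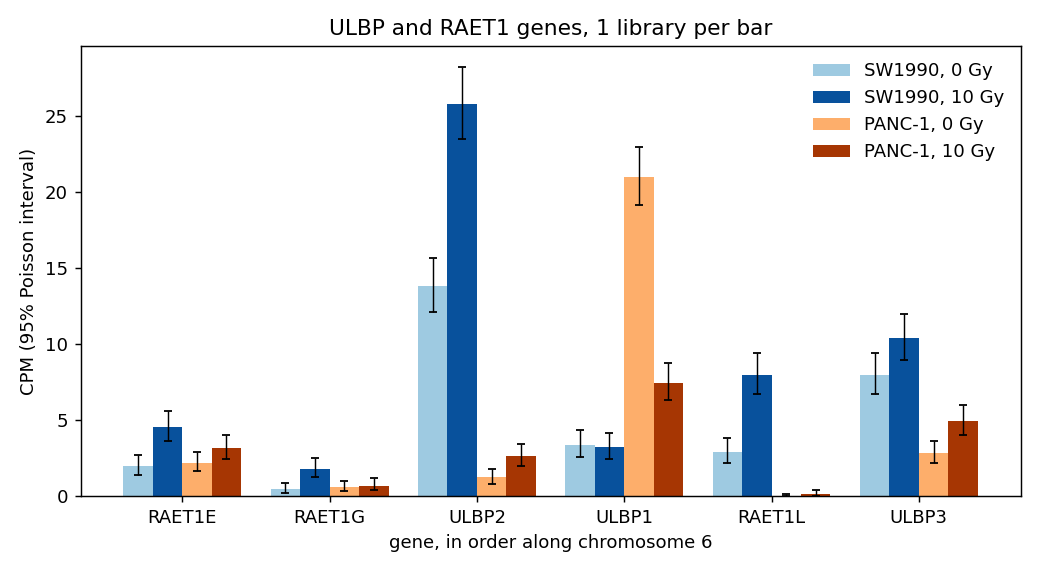
CPM (y axis) of the 6 ULBP and RAET1 genes in their order along chromosome 6 (x axis), with 1 bar per library and 95% Poisson intervals that cover counting error only. In SW1990 cells RAET1E, RAET1G, ULBP2 and RAET1L are higher after radiation. In PANC-1 cells ULBP1 is lower, while ULBP2 and ULBP3 are higher.

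PVR, too, overlaps other genes. CEACAM19, on the same strand, had 107 and 68 counts in SW1990 and 75 and 23 in PANC-1 cells, and AC243964.2, on the opposite strand, 44, 22, 7 and 8. Neither gained counts in SW1990 cells, and how reads were split between them and PVR was not tested. PVR shared 0.60% of its 100-base stretches with CEACAM19. Of 26 tested genes within 500 kb of PVR, 1 was called higher and 1 lower in SW1990 cells, beside 4.13% of all genes tested. In PANC-1 cells 1 of 26 was called higher and 1 lower, CEACAM19 among them, beside 4.7% of all genes tested.

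Related genes were read from lists that had been compiled by hand. Over all genes tested, 4.13% were called in SW1990 and 4.7% in PANC-1 cells (2.26% and 2.36% higher). The median log2 fold changes over all genes were -0.01 and -0.02, and these values apply beside every list here. Of 20 other checkpoint and costimulatory ligands, 9 were tested in SW1990 cells, with 1 called higher, and 10 in PANC-1 cells, with 1 called higher. In SW1990 cells it was TNFSF9 (4-1BB ligand, which stimulates T cells), with 59 and 146 counts (interval of the log2 fold change 0.85 to 1.76). In PANC-1 cells it was TNFRSF14 (HVEM, a ligand of the inhibitory receptor BTLA), with 30 and 88 counts (1.07 to 2.33). Both calls are lost if a coefficient of variation of 0.2 is assumed (q = 0.224 for TNFSF9 and 0.0732 for TNFRSF14), and by FPKM their log2 fold changes were 1.28 and 1.5, or 0.91 and 0.74, under the fold limit, with a pseudocount of 1. TNFRSF14, at 0.571 and 1.62 FPKM in PANC-1 cells, was tested only because its irradiated library passed the FPKM limit. The medians of this list were 0.17 and 0.53. CD70, the ligand of CD27, had 2 and 9 counts in SW1990 and 2707 and 3151 in PANC-1 cells, where it was the most abundant of the list. In SW1990 cells HLA-E, which binds the inhibitory receptor NKG2A, came first (29.1, 33.5, 28.6 and 33.2 FPKM, SW1990 first). CD40 (51 and 49 counts in PANC-1) was at 0 in SW1990 cells, while ICOSLG was higher there (243 and 388 counts against 115 and 135).
Of 12 other ligands of natural killer cells, 9 were tested in each line. The RAET1 genes and ULBP1 above were the only calls, beside 4.13% and 4.7% of all genes tested. ICAM1, an adhesion molecule, came near the limit in SW1990 cells with 579 and 1102 counts (log2 fold change 0.92, q = 1.21e-35). CLEC2B had 141 and 148 counts in PANC-1 and 0 in SW1990 cells. BAG6, the most abundant of these, had log2 fold changes of -0.34 and -0.19, though its FPKM in PANC-1 cells was 132.8 without and 155.2 with radiation, so that its direction in this line depends on the unit.
Nectins, the family of PVR, gave 0 calls among 5 tested in SW1990 and 3 in PANC-1 cells, with medians of 0.12 and 0.42. NECTIN2, which shares the receptors of PVR, was the most abundant (1972, 2368, 1762 and 2147 counts), with log2 fold changes of 0.26 and 0.42. CADM1 was far higher in SW1990 cells, with 1160 and 1173 counts against 11 and 22.

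Around CD47 and adenosine, 14 partners were listed, and 10 in SW1990 and 9 in PANC-1 cells were tested, with medians of 0.44 and 0.17. CD24, another signal against engulfment, rose in SW1990 from 74 to 202 counts (log2 fold change 1.44). Its counts were also higher with radiation in PANC-1 cells (24 and 54), where it stayed under the FPKM limit (0.323 and 0.847) and was not tested. ADORA2A, an adenosine receptor, rose in PANC-1 cells (159 and 348 counts, 1.26, though by FPKM 0.65) and had 14 and 10 counts in SW1990 cells. At the same assumed coefficient of variation both calls are lost (q = 0.0899 for CD24 and 0.154 for ADORA2A). CALR, a signal for engulfment and the most abundant of the list, had log2 fold changes of 0.15 and -0.02. ENTPD1, which makes the AMP that CD73 uses, had 2, 14, 4 and 0 counts. THBS1, a secreted ligand of CD47, was higher in SW1990 cells (16659 and 16780 counts against 2401 and 2798), and DPP4, which binds adenosine deaminase, had 188 and 330 counts there and 0 in PANC-1 cells.
Factors that shed or stabilise the ligands gave 0 calls among 13 tested in each line, with medians of 0.02 and -0.10. They include PDIA6, which helps the shedding of MICA and had log2 fold changes of 0.02 and 0.03. Among 23 regulators of ligand transcription, 22 were tested in each line. Of these, 2 were called, both higher in SW1990 cells, where 2.26% of all genes tested were called higher. MYC, a transcription factor, had 94 and 505 counts in SW1990 and 78 and 45 in PANC-1 cells (log2 fold changes 2.42 and -0.66). EGFR, a growth factor receptor, had 1577 and 3596 counts in SW1990 and 31834 and 21610 in PANC-1 cells (1.18 and -0.43), but its FPKM in SW1990 cells was 17.1 without and 21.4 with radiation. At the assumed coefficient of variation, MYC kept its call (q = 3.05e-05) and EGFR lost it (q = 0.186). The medians of this list were 0.09 and -0.07. IFNGR1, a subunit of the interferon gamma receptor, was not called. Receptors of the ligands on immune cells were near 0 throughout: 0 of 12 reached the FPKM limit for SW1990, and for PANC-1 only HCST did, the signalling partner of NKG2D, at 18 and 17 counts.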

How the data were processed

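RNA of 4 cell cultures was sequenced with paired ends. Per the labels, the authors used CASAVA 1.8, FastQC 0.11.2, Trimmomatic 0.36, HISAT2 2.0, StringTie 1.3.3b and DESeq2 1.12.4 with GRCh38. They deposited read counts per gene without normalization, made by a tool not given in the sources used here, as is the strand setting. FPKM values, scaled to transcript length and library size, were deposited beside them. The labels describe removal of ribosomal RNA, the methods an mRNA kit. No replicates exist, and intervals and floors cover counting error only.

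Rows naming no gene (1089 of 59263, 0.453% to 0.635% of counts) were left out, and 27 names turned into dates were restored from the identifier. Pairs of libraries were compared with edgeR 4.0.16 (R 4.3.3) as described above, with 0 set to 0.01, and all 4 with edgeR's quasi-likelihood test, with DESeq2 1.42.0 and limma 3.58.1 as alternatives. TMM factors were taken over all genes with an identifier. Scripts were tested on simulated data. Of 58174 identifiers, 57836 were in GENCODE release 29, 96.9% with the same coordinates.

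The 10 genes and the 15 lists were chosen with earlier results of these data known. Named genes are the 10, the genes of other lists called with radiation, the 3 most abundant per list and, of pathway lists, up to 3 with the largest difference between the lines. The text gives a part of them, and some are not reported here. HCP5, CEACAM19 and AC243964.2 are named for their overlap. JAK2, PLGRKT, ENTPD1, ULBP3, EPCAM, CDH1, MUC1, KRT7, PTPRC, HIF1A and ATM were named after their values were seen.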

Additional observations from a re-analysis of the deposited data

Results flagged for a closer look

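With radiation, the log2 fold change of NT5E was 0.413 for SW1990 and -0.222 for PANC-1, values of opposite sign, neither of which passed the limits for a call. Opposite signs were also seen for 3 genes among the regulators of ligand transcription, namely MYC (2.42 and -0.663), EGFR (1.18 and -0.429) and IFNGR1 (0.334 and -0.234). Each value compares 1 library with 1 library, and none of these differences was tested over replicates.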

How the results depend on the processing

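Radiation was compared within each line and, in the fit of all 4 libraries, with line as a term. No replicate numbers exist. Without replicates, each radiation call rests on counting error alone. With an assumed coefficient of variation of 0.2 or 0.4, the genes called fell from 650 to 99 or 15 in SW1990 cells (PVR no longer called, 0 of the 10 genes) and from 713 to 103 or 10 in PANC-1 cells. Between the lines they fell from 5975 to 3633 or 1637 without radiation, with 3 of the 10 genes left at 0.2 (without CD47) and 1 at 0.4, and from 5914 to 3520 or 1622 with radiation, with 3 left at 0.2 (without CD47 and PVR) and 1 at 0.4. In either pair the 1 left was NT5E. Of the 9 genes of all lists called with radiation in SW1990 cells, PVR included, MYC alone kept its call at 0.2, and of 3 in PANC-1 cells 0 did. By FPKM, 4 of the 9 and 1 of the 3 passed 2-fold with a pseudocount of 1, and 7 and 2 with 0 set to 0.01. A fold change limit of 1.5 gave 1456 genes in SW1990 cells, 2 of the 10 among them, and 1777 in PANC-1 cells. FPKM folds with 0 set to 0.01 gave 1662 and 1540, with 1 of the 10, ULBP2, in PANC-1 cells. DESeq2 size factors left 3 of the 10 between the irradiated lines. DESeq2's Wald test called 39 genes for radiation over both lines.

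Signs turned near 0 or with the unit. CD276 in SW1990 cells was 0.0195 and 0.0202 on the log2 scale by FPKM (pseudocount 1, and 0 set to 0.01), and CD47 in PANC-1 cells was -0.487 and -0.539. PVR between the unirradiated lines was 0.0152 by total counts and 0.0601 and 0.0635 by FPKM. NT5E with radiation over both lines was -0.0910 by limma-voom. Total counts gave 455 higher and 283 lower calls in PANC-1 cells against 357 and 356, and moved the median of all genes between the unirradiated lines from -0.01 to 0.20. Low counts limit what can be read from CD274, RAET1G, RAET1L and, in PANC-1 cells, ULBP2. The cause of these shifts was not tested.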
